A study of Mus musculus with 15 samples.

Results

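The comparison followed optic tissue kept in +Fgf culture from Day 12 to Day 15, the interval over which explants grown in vitro passed from an early to a later stage of neural retina. It set the 3 Day 15 +Fgf libraries against the 3 Day 12 +Fgf libraries. Every gene was used that reached at least 1 CPM, taken relative to the total of each library, in at least 3 of the 15 libraries of the series. That rule kept 13845 of the 23244 genes in the deposited table. Levels are given as normalized CPM (reads relative to the size of the library, scaled by the authors for composition). A gene was called when its Benjamini-Hochberg adjusted p in limma was under 0.05, and changes are given as log2 differences on the log2(CPM + 0.3) scale with their standard errors (SE), which understates the change of genes at low levels.

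All samples came from the EB5 Rx::GFP+/- mouse embryonic stem cell line, in which 1 copy of the eye field gene Rx carries GFP. Floating aggregates of these cells (SFEBq culture, with Matrigel) formed optic vesicles, and the peripheral Rx::GFP+ tissue was cut out at Day 10, giving the starting group. The explants were then cultured either with added Fgf (5 ng/mL bFgf and 10% FBS), labelled neural retina, or with CHIR99201, an inhibitor of GSK3 that activates Wnt signaling, labelled retinal pigmented epithelium, and collected on Days 12 and 15. Each of the 5 groups had 3 libraries, called biological replicates by the study. The bFgf and the serum were given together and cannot be told apart, no untreated explants of Day 12 or Day 15 were analysed here, every group derived from the same line, and whole explants were used, so that cells other than retinal ones may be present. The study noted small patches of Mitf+ tissue in some Fgf-treated aggregates.

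The vertebrate neural retina grows from a layer of dividing progenitors marked by the transcription factors Rax, Pax6, Lhx2 and Six3. Progenitors leave the cell cycle in waves: proneural basic helix-loop-helix factors are switched on, Notch signaling between neighbours limits how many cells commit, and ganglion cells, horizontal cells, cones and amacrine cells are born before rods, bipolar cells and Mueller glia. The Fgf pathway favours the neural retina over the pigment epithelium, whose master regulator is Mitf.

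The Day 12 +Fgf libraries held 15908637 to 16175450 reads and the Day 15 +Fgf libraries 13447537 to 14421731, so that 1 read was worth 0.0634 to 0.0737 CPM. Within the 2 groups the replicates correlated at Pearson r of 0.988 to 0.994 across genes. Eye field and progenitor genes were present on both days: Rax, Pax6, Lhx2, Six3 and Sox2 lay between 187 and 620.3 CPM in every one of the 6 libraries. These genes do not all set neural retina apart from pigment epithelium. Lhx2 had means of 303 and 276 CPM in +Fgf and of 273 and 230.1 CPM in +Wnt on Days 12 and 15. RNA integrity was lower in the Day 15 +Fgf samples: in the study's sample table all 3 RNA integrity numbers (RIN) of that group lay below all 3 of the Day 12 +Fgf group. RIN and day therefore cannot be told apart in these 6 libraries, and the counts of every list are given also from a fit with RIN as a covariate, in which the effect of RIN is estimated from differences within groups. The exons of many named genes overlap another annotated gene, whose reads may be counted with theirs. The overlap is on the same strand for Spp1, Fgfr2, Otx2, Notch2, Onecut1, Bhlhe23, Col3a1, Glul and Gria3, and on the opposite strand for, among others, Neurod1, Hes5, Dll1, Notch1, Fgf15, Nefl, Ptf1a, Six3, Rax, Hmga2, Tagln, Axin2 and Pfkp. These libraries are bulk tissue, in which fewer cells of a type and less RNA per cell cannot be told apart.

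Of the genes tested, 57.1% were called, 27.2% as higher and 29.9% as lower at Day 15, so that a share of called genes near these values says nothing particular about a list. With RIN as a covariate the shares were 13.6% higher and 12.4% lower. The median change of all genes was -0.02 in both fits. A gene under 1 CPM in all other groups, such as Ptf1a or Prdm13, was tested only because it was high at Day 15 in +Fgf. Such a gene could only be called higher, which raises the count of higher members in its list. Replicates of the 2 days did not overlap for 63.7% of the genes tested, so that a lack of overlap was common. By the median of their list, genes of neuron commitment and early neurons moved furthest upward, followed by synaptic, photoreceptor and glycolysis genes. Genes of the extracellular matrix, of contractile actin and of ribosome production moved downward.

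**Figure D1:**
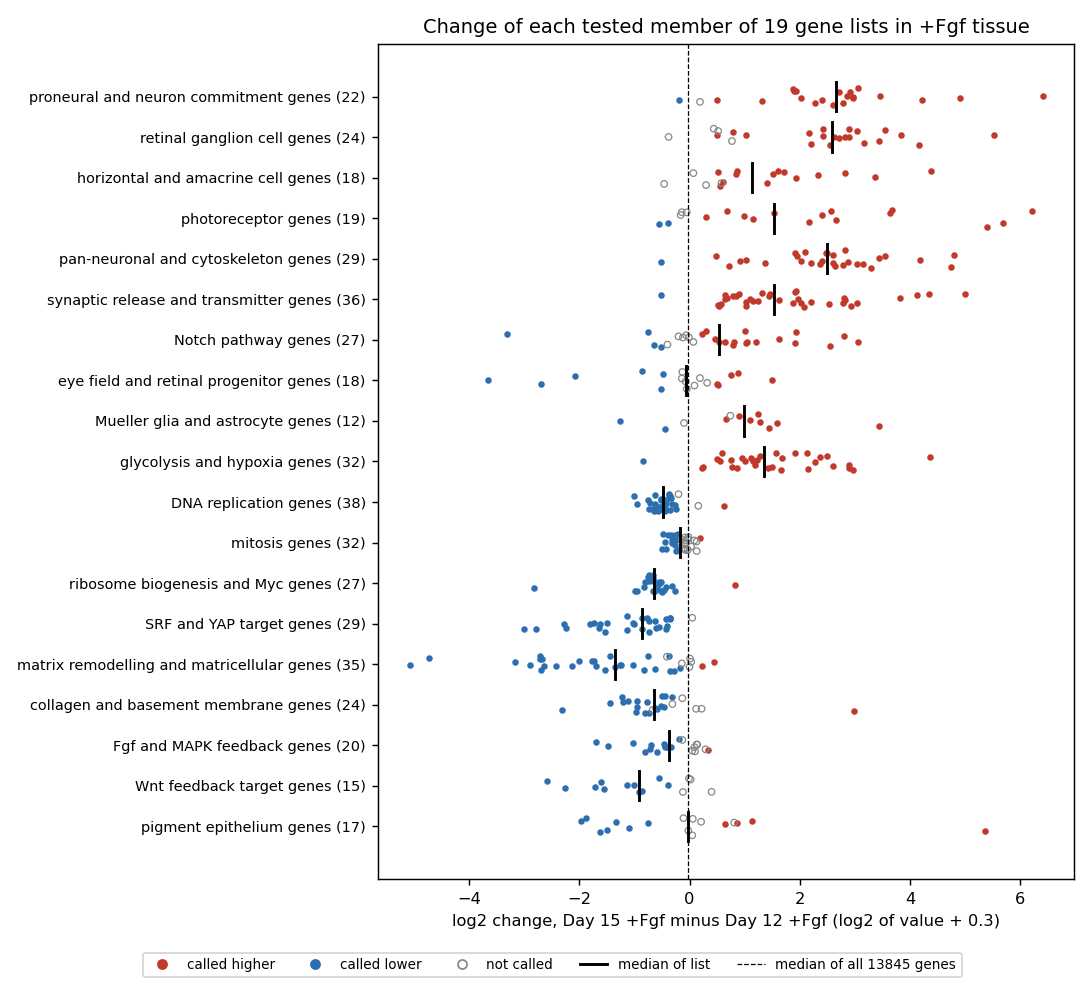
Log2 change from Day 12 to Day 15 in +Fgf culture (horizontal axis) for the tested members of 19 gene lists, 1 point per gene, filled where the gene was called higher (red) or lower (blue), with a bar at the median of each list and a dashed line at the median of all 13845 genes. The lists of neuron commitment, ganglion cells and pan-neuronal genes centre above 2, while matrix remodelling centres at -1.35.

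Proneural and neuron commitment genes rose almost as a group: 20 of 22 were called higher and 1 lower, against 27.2% and 29.9% of all genes, with a median change of 2.66, and with RIN as a covariate 20 were higher and 0 lower. Neurod4, a basic helix-loop-helix factor of early amacrine cells and photoreceptor precursors on chromosome 10 (chr10:130268152-130280240, minus strand, GRCm38), stood at 1.01, 1.98 and 0.767 CPM in the 3 Day 12 libraries and at 134, 128 and 114 CPM in the Day 15 libraries. Its replicates were far apart between days, at a change of 6.41 ± 0.25 (SE; adjusted p = 1.18e-11). Atoh7, the factor required for most ganglion cells to form, was at 11.0, 10.9 and 13.9 CPM at Day 12 and at 121, 93.0 and 92.6 CPM at Day 15, with no overlap between the days (3.06 ± 0.31, adjusted p = 3.63e-07).

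Other regulators of commitment followed. Neurod1 rose by 2.61 and Neurog2 by 2.40, both proneural factors already present at Day 12 at 19.5 to 20.5 and 33.7 to 43.5 CPM. Olig2, a factor of progenitors in their last division, rose by 4.91 from 0.254, 0.892 and 0.256 CPM to 23.5, 20.1 and 20.4 CPM. Insm1, a zinc finger factor of cells about to leave the cycle, rose by 1.89, and Hes6, which opposes Hes1, rose by 2.02. Prdm13, a zinc finger gene of early amacrine cells, had 1 read over the 3 Day 12 libraries and 561 over the 3 Day 15 libraries. The member called lower was Tcf12, a widely expressed partner of the proneural factors, from 331 to 342 CPM down to 288 to 301 CPM (-0.19 ± 0.05, adjusted p = 0.00275); its change was -0.04 with RIN as a covariate (adjusted p = 0.768).

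Notch pathway genes moved in both directions, with 17 of 27 higher, 4 lower and a median of 0.54 (14 higher and 3 lower with RIN). On the ligand side Dll1 rose by 1.63, Dll3 by 2.55 and Dll4 by 1.94, all made by newly committing cells. Jag1, a ligand of the peripheral optic cup and of non-neural epithelia, moved the other way: it was at 184, 195 and 249.7 CPM at Day 12 and at 21.5, 19.6 and 20.5 CPM at Day 15. This fall of 3.32 on the log2 scale (SE 0.09, adjusted p = 4.91e-13) had 1 of the 2 smallest adjusted p-values among the genes named here, beside the antiproliferative gene Btg2. Among receptors Notch1 rose by 1.21, whereas Notch2 fell by 0.76 and Notch3 by 0.65. Of the target genes, Hes5 went from 20.8, 27.3 and 21.9 CPM to 176, 148 and 167 CPM (2.80 ± 0.12). Hes1 was at 133 to 165 CPM and then at 99.2 to 115 CPM, without overlap (-0.52 ± 0.09), and with RIN as a covariate its change was -0.54 at an adjusted p of 0.0508.

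Ganglion cell genes were called higher in 20 of 24 tested members and lower in 0, with a median of 2.58 (16 higher and 0 lower with RIN). Their summed level went from 220.3 to 241 CPM at Day 12 to 1521 to 1690.4 CPM at Day 15. Pou4f2, the transcription factor that follows Atoh7 and directs ganglion cell differentiation, was at 14.0, 8.47 and 15.5 CPM at Day 12 and at 87.3, 77.9 and 81.0 CPM at Day 15, a rise of 2.71 ± 0.32 (adjusted p = 1.82e-06). Isl1, its partner, went from 26.0, 15.6 and 30.4 CPM to 117, 111 and 98.3 CPM (2.21 ± 0.30), and with RIN as a covariate its change was 1.29 at an adjusted p of 0.107. Sncg, the synuclein abundant in ganglion cells, rose by 5.52 ± 0.27 from 2.47, 1.66 and 2.17 CPM to 119, 112 and 95.8 CPM. Nefl, a neurofilament subunit of large axons, rose by 3.84. Eomes, Ebf2, Tbr1 and Thy1, which mark ganglion cells or their subtypes, were not called.

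Horizontal and amacrine cell genes were called higher in 14 of 18 tested members and lower in 0, with a median of 1.13 (8 higher with RIN). Ptf1a, which commits precursors to these inhibitory fates, had 2 reads over the 3 Day 12 libraries and was at 7.08, 6.94 and 6.15 CPM at Day 15. Only its Day 15 +Fgf libraries brought it over the limit for testing. The ratio of its counts, corrected for depth, was 158, with a 95% interval of 43.3 to 1309 that covers counting error only. Barhl2, an amacrine factor, rose by 3.36 and Gad2, a GABA-synthesizing enzyme of inhibitory neurons, by 2.82. Tfap2b, shared by horizontal and amacrine cells, rose by 2.33, and Onecut1, of horizontal cells, by 1.40.

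Photoreceptor genes were for the most part at low levels. Of 40 listed genes only 19 reached the limit for testing, and 13 of the 40 had 3 reads or fewer in each of the 6 libraries, 5 of them with 0 reads throughout. Among the 19 tested, 14 were higher and 2 lower, with a median of 1.53 (10 higher and 0 lower with RIN). The summed level of the list was 293 to 321 CPM at Day 10, 127 to 157 CPM at Day 12 and 361 to 407 CPM at Day 15, so that Day 12 was the lowest. Otx2 alone held most of this sum at Days 10 and 12, at the levels given below. The sum on those days therefore does not describe the list as a whole. Crx, the homeobox factor of all photoreceptor precursors (chr7:15865947-15879968, minus strand, GRCm38), was at 1.14, 2.99 and 1.34 CPM at Day 12 and at 116, 97.7 and 93.8 CPM at Day 15 (5.69 ± 0.24, adjusted p = 2.44e-11). Prdm1, which holds precursors to the photoreceptor fate against the bipolar one, went from 0.317, 0.319 and 0.639 CPM to 61.0, 48.6 and 49.1 CPM (6.22 ± 0.24). Its Day 10 level was also low, at 0.273 to 0.468 CPM. Otx2, which acts upstream of both, was at 177 to 218 CPM at Day 10, 74.0 to 101 CPM at Day 12 and 107 to 111 CPM at Day 15. Its change from Day 12 to Day 15 was 0.30 ± 0.09 (adjusted p = 0.0103), and with RIN as a covariate 0.46 with a larger SE of 0.18 (adjusted p = 0.0742).

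Several genes of the mature photoreceptor rose from levels near 0. Cdhr1, a cadherin of the outer segment base, rose by 5.83, from 0.382 to 0.444 CPM to 35.1 to 44.3 CPM. Pdc, the phosducin that binds transducin, had 1 read over the Day 12 libraries and 560 over the Day 15 libraries, a depth-corrected ratio of 625 with a 95% interval of 112 to 24719 for counting error. Nrl, the factor that directs rods, had 0 reads at Day 12 and stood at 1.99, 1.79 and 1.13 CPM at Day 15, at least 8.56-fold higher when the Day 12 level was set to 3 reads per library. Guca1a, a guanylate cyclase activator of the outer segment, moved the other way, at 1.33 to 1.53 CPM and then at 0.848 to 0.962 CPM (-0.56 ± 0.18), and with RIN as a covariate its change was -0.71 at an adjusted p of 0.193.

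**Figure D2:**
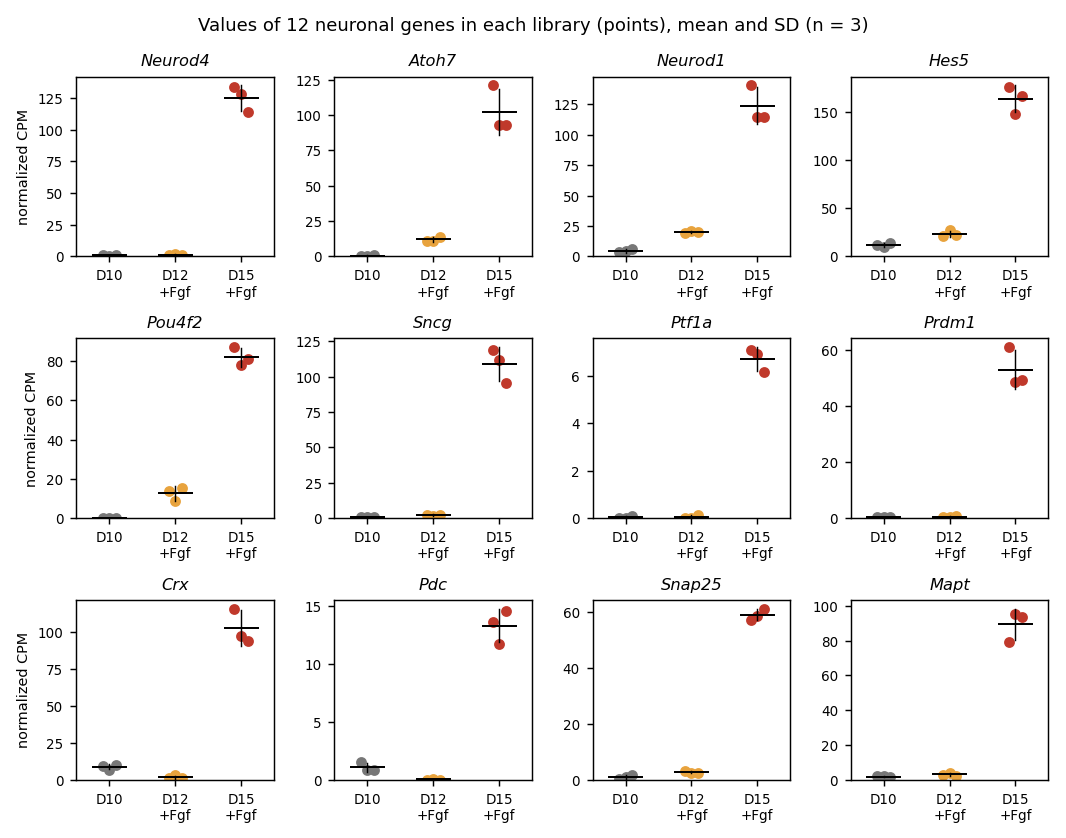
Normalized CPM (vertical axis, from 0) of 12 neuronal genes in each Day 10 library and each +Fgf library of Days 12 and 15, with the mean as a bar and the SD as a line (n = 3). For Neurod4, Crx, Prdm1 and Pdc the Day 12 points lie on the axis, at 2.99 CPM or less, and all Day 15 points lie far above them.

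Genes shared by most neurons rose with these markers. Pan-neuronal and cytoskeleton genes were higher in 28 of 29 members and lower in 1, with a median of 2.49 (27 higher and 0 lower with RIN). Tubb3, the neuronal tubulin, was at 142, 160.4 and 143 CPM at Day 12 and at 714, 671 and 661 CPM at Day 15 (2.20 ± 0.16). Mapt, the axonal protein tau, went from 2.60, 4.01 and 2.43 CPM to 79.1, 95.5 and 93.7 CPM (4.79 ± 0.21), and Dcx, a microtubule binder of migrating neurons, rose by 2.78. Elavl2, an RNA-binding protein, was the member called lower (-0.51 ± 0.15), and its change was -0.61 with an adjusted p of 0.173 when RIN was a covariate.

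Synaptic release and transmitter genes were higher in 35 of 36 members and lower in 1, with a median of 1.54 (28 higher and 0 lower with RIN). Snap25, a core protein of vesicle fusion, rose by 4.35 ± 0.27 from 2.98, 2.55 and 2.30 CPM to 57.1, 58.5 and 61.1 CPM. Syt4, a synaptotagmin, rose by 5.00 and Cplx1, a complexin that clamps release, by 4.12. Syt1, the calcium sensor of fast release, was already at 38.0 to 52.1 CPM at Day 12 and rose by 1.09. Outside the lists, Rph3a, a vesicle-binding protein, rose by 5.35 and Sez6l, a neuronal surface protein, by 5.19. The glutamate receptor subunit Gria3 was the member called lower, though its replicates overlapped, at 14.6 to 18.1 CPM and then at 9.27 to 15.5 CPM (-0.51, adjusted p = 0.0168; with RIN -0.29, adjusted p = 0.581).

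Cell types born last gave a thinner picture. Of 12 bipolar cell genes 5 were tested, with 2 higher and 2 lower (1 and 2 with RIN). Bhlhe23, a factor of rod bipolar cells, rose by 2.71 to at most 3.91 CPM. Trpm1, the channel of ON bipolar cells that pigment cells also express, fell by 1.92 from 243 to 278 CPM to 57.7 to 80.6 CPM. Among Mueller glia and astrocyte genes 8 of 12 tested were higher and 2 lower, with a median of 0.99 (5 higher and 1 lower with RIN). Crym, a crystallin-related protein, rose by 3.44 and Car2, a carbonic anhydrase, by 1.59. The 2 lower members were Cd44, which fell by 1.26 (with RIN -1.12, adjusted p = 0.0109), and Apoe, which fell by 0.44 with overlapping replicates (with RIN -0.65, adjusted p = 0.149). Rlbp1, the retinaldehyde-binding protein of Mueller glia and pigment epithelium, rose by 0.66 (with RIN 0.48, adjusted p = 0.246), and Glul, the glutamine synthetase of mature Mueller glia, was not called, at 557 to 586 CPM and then at 511 to 544 CPM.

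Progenitor genes did not move together. Of 18 eye field and progenitor genes 5 were higher and 6 lower, with a median of -0.06, and with RIN 3 were higher and 3 lower. Pax6 (-0.05 ± 0.05, adjusted p = 0.499), Lhx2 (-0.13 ± 0.07, adjusted p = 0.109) and Sox2 (-0.14 ± 0.06, adjusted p = 0.0783) were not called. Rax rose by 0.49 and Six3 by 0.52, and with RIN as a covariate the changes were 0.14 and 0.33 (adjusted p = 0.504 and 0.151).

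Single members of the list changed by large amounts in either direction. Fgf15, a secreted factor of dividing retinal progenitors, rose by 1.49 ± 0.19 from 166, 255 and 194 CPM to 616, 536 and 556 CPM. Nr2e1, an orphan receptor of neural progenitors, rose by 0.88, and Sox9, which progenitors share with Mueller glia, by 0.75. Hmga2, a chromatin protein of young progenitors repressed by let-7, stood at 532, 601 and 609.7 CPM at Day 12 and at 38.2, 43.7 and 57.5 CPM at Day 15. It fell by 3.65 on the log2 scale (SE 0.16, adjusted p = 3.72e-11). Lin28b, which blocks let-7 maturation, fell by 2.08 from 76.8 to 97.6 CPM to 19.2 to 22.7 CPM. Its relative Lin28a fell by 2.69, and with RIN as a covariate its change was -1.64 (adjusted p = 0.247). Sfrp2, a secreted Wnt antagonist of the young retina, fell by 0.86.

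Patterning genes of the dorsal and ventral eye were called in few cases, with 4 of 18 tested higher, 3 lower and a median of -0.20 (2 higher and 1 lower with RIN). The ventral factor Vax2 was not called, at 27.1 to 64.6 CPM and then at 29.0 to 41.8 CPM. Tbx3, of the dorsal eye, rose by 0.77 (with RIN 1.24, adjusted p = 0.085). Aldh1a3, the retinoic acid enzyme of the ventral eye, fell by 0.99 (with RIN -0.18, adjusted p = 0.765).

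DNA replication genes fell by small amounts: 35 of 38 were lower and 1 higher, with a median of -0.49, and with RIN 19 were lower and 1 higher. Mcm2, a subunit of the replicative helicase, was at 318, 337 and 313 CPM at Day 12 and at 226, 229 and 217 CPM at Day 15 (-0.52 ± 0.04, adjusted p = 2.72e-08). Orc1, of the origin recognition complex, fell by 0.95 and Ccne1, the cyclin of S phase entry, by 1.01. E2f1, the transcription factor of S phase genes, was the member that rose (0.63 ± 0.08), from 56.4 to 60.5 CPM to 87.6 to 92.9 CPM. Mitosis genes were lower in 16 of 32 members and higher in 1, with a median of -0.17. With RIN as a covariate, 3 mitosis genes were lower and 2 higher. Mki67, a marker of cells in cycle, was at 403 to 443 CPM and then at 446 to 519.7 CPM (0.19 ± 0.08, adjusted p = 0.0401; with RIN 0.29, adjusted p = 0.203).

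Genes of cell cycle exit and the D-type cyclins were split, with 11 of 21 higher, 8 lower and a median of 0.50 (9 higher and 6 lower with RIN). Btg2, an antiproliferative gene of neuron-producing divisions, went from 74.2, 72.5 and 74.6 CPM to 283, 267 and 261 CPM (1.87 ± 0.05, adjusted p = 4.91e-13). Gadd45a, a growth arrest gene, rose by 1.94, and the inhibitor Cdkn1b by 0.59. Cdkn1c, another inhibitor of the same family, fell by 1.81, from 144 to 207 CPM to 34.1 to 56.3 CPM. Ccnd1, the main D-type cyclin of retinal progenitors, rose by 0.55.

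Ribosome biogenesis and Myc genes were lower in 26 of 27 members and higher in 1, with a median of -0.64 (20 lower and 1 higher with RIN). Myc itself was at 93.5, 81.9 and 76.4 CPM at Day 12 and at 10.0, 10.2 and 15.2 CPM at Day 15, a fall of 2.82 on the log2 scale (SE 0.15). The member that rose was Mycn, the family member of neural progenitors, from 80.5, 80.5 and 70.1 CPM to 135, 140.5 and 134 CPM (0.82 ± 0.09). Ncl, nucleolin, fell by 0.66, Nop2, an rRNA methyltransferase, by 0.99 and Rrp12, an export factor of ribosomal subunits, by 0.95.

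Targets of the actin-sensing factors SRF and YAP fell: 28 of 29 tested members were lower and 0 higher, with a median of -0.87 (26 lower and 0 higher with RIN). Tagln, an actin-bundling protein of contractile cells, was at 282, 273 and 393 CPM at Day 12 and at 42.0, 36.5 and 37.8 CPM at Day 15 (-3.00 ± 0.22). Cyr61, a matricellular YAP target, fell by 2.28 and Cnn1, a calponin of smooth muscle, by 2.79. Acta2, smooth muscle actin, fell by 1.64, and Cnn2, another calponin, by 2.24. Outside the list, the cardiac actin Actc1 fell by 4.60 from 13.6 to 18.6 CPM to 0.295 to 0.565 CPM.

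Matrix remodelling and matricellular genes showed the largest fall in median of the lists plotted, at -1.35, with 28 of 35 tested members lower and 2 higher (22 lower and 0 higher with RIN). Spp1, the secreted phosphoprotein osteopontin, was at 434, 293 and 869.9 CPM at Day 12, uneven among replicates, and at 12.6, 11.5 and 18.9 CPM at Day 15. The days did not overlap, and the change was -5.07 ± 0.32 (adjusted p = 1.54e-09). Mmp9, a gelatinase, went from 69.0, 41.3 and 62.2 CPM to 2.43, 0.824 and 2.90 CPM (-4.72 ± 0.31). The Day 10 tissue from which the explants were cut had low levels of the same genes, at 6.13 to 10.2 CPM for Spp1, 0.204 to 0.382 CPM for Mmp9 and, among the contractile genes, 17.7 to 27.1 CPM for Tagln, so that of the 3 times measured Day 12 was the highest. Tnc, tenascin C, fell by 2.89. Collagen and basement membrane genes were lower in 18 of 24 members and higher in 1, with a median of -0.65 (10 lower and 1 higher with RIN). Fn1, fibronectin, fell by 1.44, whereas Col9a3, a collagen IX chain, rose by 2.98 from at most 2.80 CPM to at most 26.2 CPM. Col3a1, a fibrillar collagen of mesenchyme, fell by 2.31 (with RIN -1.09, adjusted p = 0.27).

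Genes that report Fgf and MAPK activity fell or were not called, with 1 exception. Of 20 tested feedback genes 12 were lower and 1 higher, with a median of -0.37, and with RIN 6 were lower and 0 higher. The summed level of the list was 810.4 to 890.2 CPM at Day 10, 1223 to 1344 CPM at Day 12 and 978 to 1014 CPM at Day 15. The Day 15 sum thus stayed above that of the starting tissue. The study reported that Spry and Spred genes increased after Fgf stimulation. Dusp6, a phosphatase that shuts off ERK, was at 151, 148 and 165 CPM at Day 12 and at 95.7, 91.3 and 94.1 CPM at Day 15 (-0.72 ± 0.11; with RIN -0.61, adjusted p = 0.0695). The receptor Fgfr2 fell by 1.47, from 51.6 to 62.1 CPM to 15.6 to 24.8 CPM, and Il17rd, a membrane inhibitor of Fgf signaling, by 1.02. Of the Sprouty and Spred inhibitors, Spry2 fell by 0.59, Spred3 by 0.80 and Spred1 by 0.19 (for Spred1 -0.12 with RIN, adjusted p = 0.574), while Spry1, Spry4 and Spred2 were not called and their replicates overlapped. The member that rose was Etv1, an ETS factor, by 0.34, and with RIN as a covariate its change was 0.36 at an adjusted p of 0.3.

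Immediate early genes, which respond within minutes to growth factors and to handling of tissue, were lower in 12 of 20 tested members and higher in 3, with a median of -0.79 (5 lower and 1 higher with RIN). Egr1 fell by 1.64 from 26.2 to 29.9 CPM to 8.31 to 9.68 CPM, and Fos fell by 1.29 (with RIN -1.01, adjusted p = 0.108). Ier3 rose by 1.90. Wnt feedback targets were lower in 11 of 15 members and higher in 0, with a median of -0.92, and with RIN 4 were lower. Lef1, a transcription factor of the pathway, fell by 1.72, from 22.4 to 26.9 CPM to 4.50, 7.14 and 11.3 CPM. Axin2, the most widely used reporter of the pathway, had overlapping replicates, at 19.3 to 37.7 CPM and then at 10.5 to 23.7 CPM (-0.92, adjusted p = 0.00251; with RIN -0.04, adjusted p = 0.95).

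Glycolysis and hypoxia genes rose in 31 of 32 members, with 1 lower and a median of 1.35 (29 higher and 1 lower with RIN). Ldha, lactate dehydrogenase, was at 722, 1219.6 and 593 CPM at Day 12 and at 2292, 2291 and 2621 CPM at Day 15 (1.57 ± 0.23). Adm, adrenomedullin, a secreted peptide induced by low oxygen, went from 1.08, 2.93 and 0.958 CPM to 39.1, 35.8 and 34.6 CPM (4.37 ± 0.32, adjusted p = 8.66e-09). For both genes Day 12 replicate 2 was the highest of its group, and the days did not overlap. Pfkp, a phosphofructokinase, rose by 2.96 and Aldoc, an aldolase, by 2.90. Bnip3, a mitochondrial protein of low oxygen, rose by 2.60 and Vegfa, the vascular growth factor, by 1.67. The exception was Slc16a1, a lactate transporter, which fell by 0.85 from 114 to 118 CPM to 50.3 to 81.1 CPM.

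**Figure D3:**
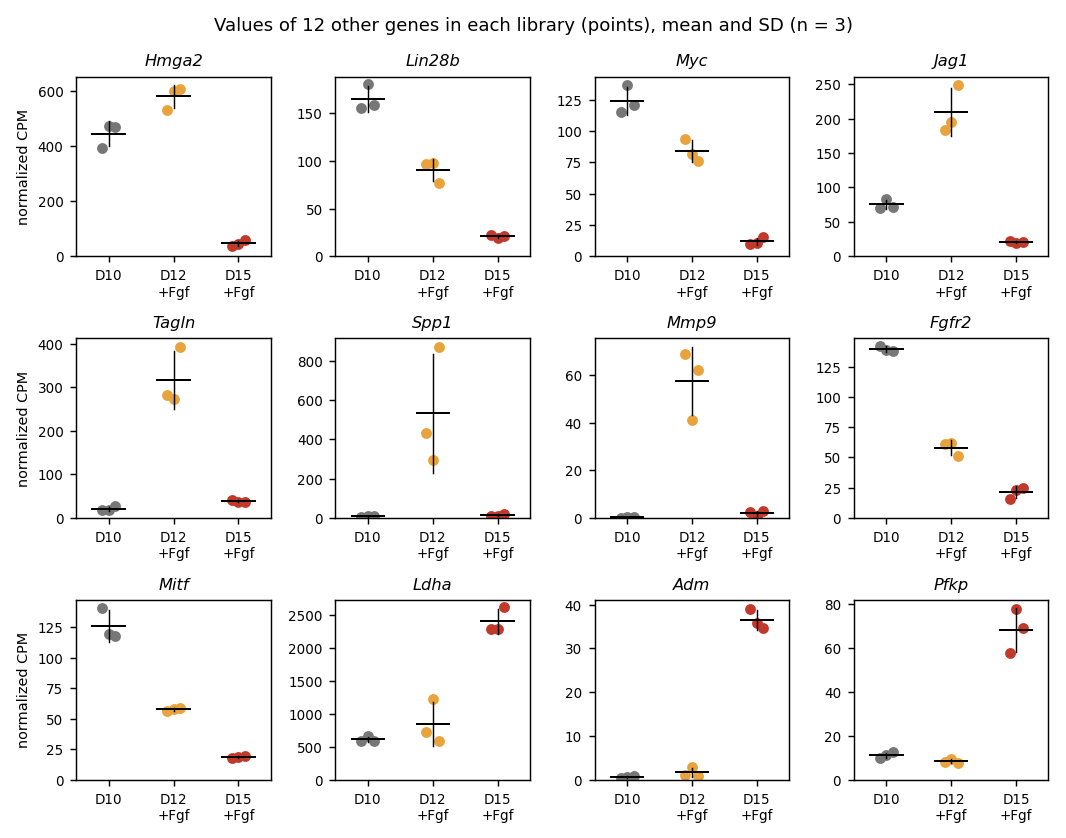
Normalized CPM (vertical axis, from 0) of 12 genes of progenitors, matrix, signaling, pigment and glycolysis in each Day 10 library and each +Fgf library of Days 12 and 15, with the mean as a bar and the SD as a line (n = 3). Hmga2, Jag1, Tagln, Spp1 and Mmp9 fall between Days 12 and 15 without overlap, and Spp1 is spread from 293 to 869.9 CPM at Day 12, while Ldha, Adm and Pfkp rise.

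Promoter sequences of 1 gene from each of 5 lists whose members moved together are printed here, to show the short motif known for that list where it stood near the start of the gene. Each runs 5′ to 3′ on the gene's strand over 300 bases, 250 before and 50 after the start, from RefSeq on GRCm38.p6, with the motif, found on either strand, in capitals. The genes are, among the called members with the motif in this window, those with the largest absolute change. Neurod4 (chr10:130280089-130280388, minus strand) holds CAGCTG, an E-box form bound by proneural factors. Crx (chr7:15879906-15880205, minus strand) holds 2 copies of TAATCC, the form bound by Otx2 and Crx, read on the opposite strand. Cnn2 (chr10:79988350-79988649, plus strand) holds a CArG box, the site of SRF. Orc1 (chr4:108579204-108579503, plus strand) holds an E2F form (TTTCGCGC on the opposite strand), and Aldoc (chr11:78322823-78323122, plus strand) holds ACGTG, the core of the hypoxia response element.
Neurod4: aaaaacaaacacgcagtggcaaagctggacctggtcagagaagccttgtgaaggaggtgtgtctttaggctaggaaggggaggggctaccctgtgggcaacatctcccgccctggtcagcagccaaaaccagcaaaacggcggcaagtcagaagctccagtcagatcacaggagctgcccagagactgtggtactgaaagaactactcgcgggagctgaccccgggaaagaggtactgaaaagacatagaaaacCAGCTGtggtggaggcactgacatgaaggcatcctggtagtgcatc
Crx: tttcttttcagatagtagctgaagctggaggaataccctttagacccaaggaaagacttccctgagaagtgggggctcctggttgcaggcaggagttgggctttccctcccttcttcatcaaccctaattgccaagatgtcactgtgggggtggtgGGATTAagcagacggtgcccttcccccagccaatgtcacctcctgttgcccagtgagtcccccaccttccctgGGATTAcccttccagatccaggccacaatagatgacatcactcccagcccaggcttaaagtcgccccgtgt
Cnn2: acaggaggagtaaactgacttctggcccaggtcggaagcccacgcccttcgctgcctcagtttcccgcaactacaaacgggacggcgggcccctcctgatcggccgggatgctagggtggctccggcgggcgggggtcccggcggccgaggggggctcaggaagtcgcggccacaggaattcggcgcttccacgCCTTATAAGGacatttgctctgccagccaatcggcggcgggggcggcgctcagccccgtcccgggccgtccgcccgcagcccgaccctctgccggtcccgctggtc
Orc1: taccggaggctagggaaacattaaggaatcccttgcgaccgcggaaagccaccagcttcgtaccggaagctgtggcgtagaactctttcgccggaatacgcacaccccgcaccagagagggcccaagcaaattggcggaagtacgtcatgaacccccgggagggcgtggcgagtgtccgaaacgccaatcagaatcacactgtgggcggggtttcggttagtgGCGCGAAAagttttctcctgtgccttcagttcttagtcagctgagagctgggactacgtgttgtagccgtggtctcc
Aldoc: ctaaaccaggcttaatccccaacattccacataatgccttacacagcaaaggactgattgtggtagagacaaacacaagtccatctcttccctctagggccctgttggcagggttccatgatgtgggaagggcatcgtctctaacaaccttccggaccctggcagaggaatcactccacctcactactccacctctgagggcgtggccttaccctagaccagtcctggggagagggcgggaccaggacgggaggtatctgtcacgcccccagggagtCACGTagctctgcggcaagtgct

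The motifs were counted in the same window of all 10199 tested genes that had one, on both strands. ACGTG stood in 21 of 29 glycolysis and hypoxia genes, or 72.4%, against 29.1% of all these genes. The CArG box stood in 7 of 23 SRF and YAP targets, or 30.4%, against 1.58%. TAATCC stood in 8 of 15 photoreceptor genes, or 53.3%, against 6.83%, and CAGCTG in 8 of 18 proneural genes, or 44.4%, against 18.3%. Any of the E2F forms TTTCCCGC, TTTCGCGC, TTTGCCGC and TTTGGCGC stood in 14 of 32 replication genes, or 43.8%, against 4.66%. Several lists were assembled from known targets of these factors, so that the shares describe the lists and were not tested.

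Markers of cells outside the neural retina were summed over each list. Pigment epithelium genes had a summed level of 412 to 472 CPM at Day 12 and of 302 to 491 CPM at Day 15, with 4 of 17 tested members higher and 7 lower (2 and 6 with RIN). Mitf was at 56.2, 58.1 and 58.9 CPM and then at 17.8, 18.3 and 19.6 CPM (-1.62 ± 0.07), whereas the pigment enzyme Tyrp1 rose by 1.14 and Tyr by 0.65 (for Tyr 0.28 with RIN, adjusted p = 0.614). Ttr, a carrier protein made by pigment epithelium and choroid plexus, was at 0.127 to 0.765 CPM at Day 12 and at 3.61, 121 and 66.6 CPM at Day 15. Neural crest and mesenchyme genes went from a sum of 129 to 239 CPM to one of 70.3 to 101 CPM, with 9 of 14 tested members lower and 1 higher (2 and 0 with RIN); these levels moved with those of the matrix genes, and their part in that result was not tested.

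Genes of brain regions outside the eye had a summed level of 100 to 139 CPM at Day 12 and of 88.5 to 145 CPM at Day 15, with 3 of 15 tested members higher and 4 lower (4 and 1 with RIN). Neurod6, a gene of cortical and some amacrine neurons, was at 0.0737 CPM in Day 15 replicate 1 and at 39.1 and 44.0 CPM in the other two, so that its call (adjusted p = 0.00555) rests on those 2 libraries. The neuronal genes named above with all 3 values at each day were high in all 3 Day 15 libraries. Blood, endothelium and microglia genes had a sum of 100.2 to 171 CPM at Day 12 and of 218 to 269 CPM at Day 15, most of it from Kdr, a VEGF receptor that retinal progenitors also express. Muscle genes summed to 19.3 to 22.3 CPM and then to 3.71 to 5.79 CPM, lens genes to 10.7 to 14.3 CPM and then to 17.8 to 19.5 CPM, and pluripotency and endoderm genes to 2.94 to 14.5 CPM and then to 1.47 to 30.2 CPM. In these 4 lists the counts of tested members higher and lower were 2 and 0 of 4 for blood, 2 and 1 of 4 for muscle, 3 and 0 of 7 for lens and 0 and 0 of 11 for pluripotency, and the part of such cells in the results was not tested. With RIN the counts were 1 and 0 for blood, 0 and 1 for muscle, 0 and 0 for lens and 0 and 0 for pluripotency.

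Most changes kept their direction when RNA integrity was taken into the fit, and fewer than 1 in 2 kept their call. With RIN as a covariate 3591 genes were called in place of 7899, and the median SE rose from 0.0878 to 0.176. Of the 7899 genes, 98.4% kept the sign of their change and 3508 were called in both fits with the same sign, with 0 called in opposite directions. Of the 1700 genes called with a change of at least 1 on the log2 scale, 1283 (75.5%) were also called with RIN and 99.3% kept their sign. Transcript length, along which degraded RNA can lose reads unevenly, gave medians of -0.01, -0.04, -0.03, -0.02 and -0.01 in 5 classes of 12622 genes from the shortest to the longest. The RIN covariate rests on differences within groups, so that a lost call does not show where a change came from.

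**Figure D4:**
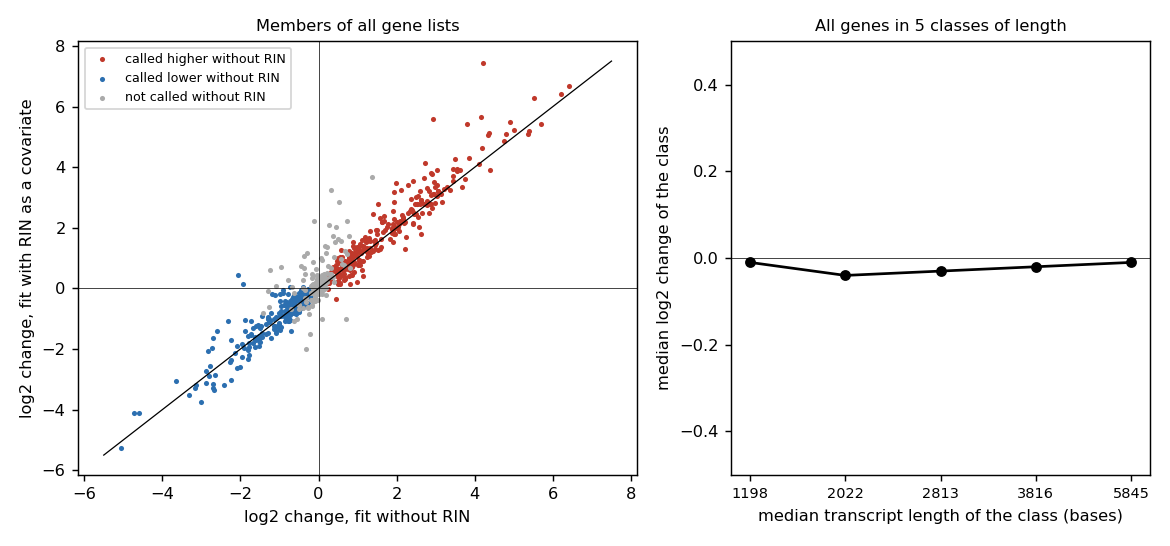
Left, the log2 change from Day 12 to Day 15 in +Fgf culture without RIN (horizontal) and with RIN as a covariate (vertical) for all tested list members, coloured by their call without RIN, with the line of equal values. Right, the median log2 change of all genes in 5 classes of transcript length, which stays between -0.04 and -0.01.

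The +Wnt explants of the same series, collected on the same days in separate libraries, served to ask which of these changes differed between the cultures. The difference between the changes in +Fgf and +Wnt was tested as an interaction: for 27.0% of genes the change was called higher in +Fgf and for 20.9% lower. With RIN as a covariate these shares were 15.8% and 12.0%. The direction was shared for many genes, with 2355 higher and 2578 lower in both cultures. A further 412 were higher in +Fgf and lower in +Wnt, and 650 were lower in +Fgf and higher in +Wnt.

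Many neuronal genes rose in both cultures, and for most proneural and ganglion cell genes the change was higher in +Fgf. In +Wnt culture itself 32.5% of all genes were called higher and 35.5% lower, with a median of -0.02. Of the 22 proneural genes, 12 were themselves called higher in +Wnt and 5 lower, at a median of 0.34. The change was called higher in +Fgf than in +Wnt for 16 of the 22 and lower for 1 (15 and 0 with RIN). Neurod4 changed by -0.74 in +Wnt, a difference of 7.15, and Crx by -0.16, a difference of 5.85. Of 24 ganglion cell genes 14 were higher and 1 lower in +Wnt, at a median of 0.78, and the difference was above 0 in 15 and below 0 in 1 (13 and 0 with RIN). Pou4f2 rose by 2.00 in +Wnt, and its difference of 0.72 was not called (adjusted p = 0.202). Its levels there were very low, at 0.0629 to 0.265 CPM at Day 12 and 0.620 to 2.03 CPM at Day 15. The Day 15 +Fgf libraries had 77.9 to 87.3 CPM. At such low levels the added 0.3 CPM understates the change, so the 2 changes are not comparable in size. Pan-neuronal genes were called higher in +Wnt in all 29 members, at a median of 1.37, and the synaptic list was higher there in 35 of 36, at a median of 1.65. In these lists the difference was above 0 in 19 and 15 genes and below 0 in 2 and 8 (17 and 11, and 2 and 5, with RIN).

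The changes of replication and mitosis genes differed in size. In +Wnt all 38 replication genes and all 32 mitosis genes were lower, with medians of -1.19 and -1.18, and the difference was above 0 in 36 and 32 of them and below 0 in 0 of either list (34 and 32 above 0 with RIN). Progenitor genes had a median of -0.92 in +Wnt, with 14 of 18 lower, and Rax changed there by -2.97. Matrix remodelling genes went in opposite directions: 26 of 35 were higher and 0 lower in +Wnt, at a median of 1.07, and the difference was below 0 in 33 and above 0 in 1 (30 and 0 with RIN). Mmp9 changed by 5.29 in +Wnt, a difference of -10.02, and Tnc by 4.91, a difference of -7.80. Immediate early genes also parted, with 14 of 20 higher in +Wnt and a difference below 0 in 17 (11 with RIN).

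Differences were also called below 0 in 21 of 29 SRF and YAP targets and above 0 in 2 (21 and 2 with RIN). Collagen and basement membrane genes had 18 of 24 below 0 and 3 above (16 and 3 with RIN). Fgf and MAPK feedback genes had 15 of 20 below 0 and 0 above (7 and 0 with RIN). Mueller glia and astrocyte genes were higher in +Wnt in 11 of 12 members, with 6 differences below 0 and 2 above (5 and 1 with RIN). In the glycolysis and ribosome lists few differences were called. Glycolysis and hypoxia genes were higher in +Wnt in all 32 members at a median of 1.45, and the difference was above 0 in 4 and below 0 in 7 (2 and 4 with RIN). Adm changed by 4.97 there. Ribosome biogenesis and Myc genes were lower in 25 of 27 in +Wnt at a median of -0.60, with a difference above 0 in 3 and below 0 in 3 (5 and 1 with RIN). Myc was among the members below 0, with a change of -0.19 in +Wnt and a difference of -2.63. The libraries of the 2 cultures also differ in RIN, and with RIN as a covariate 3842 genes in place of 6636 had a called difference.

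**Figure D5:**
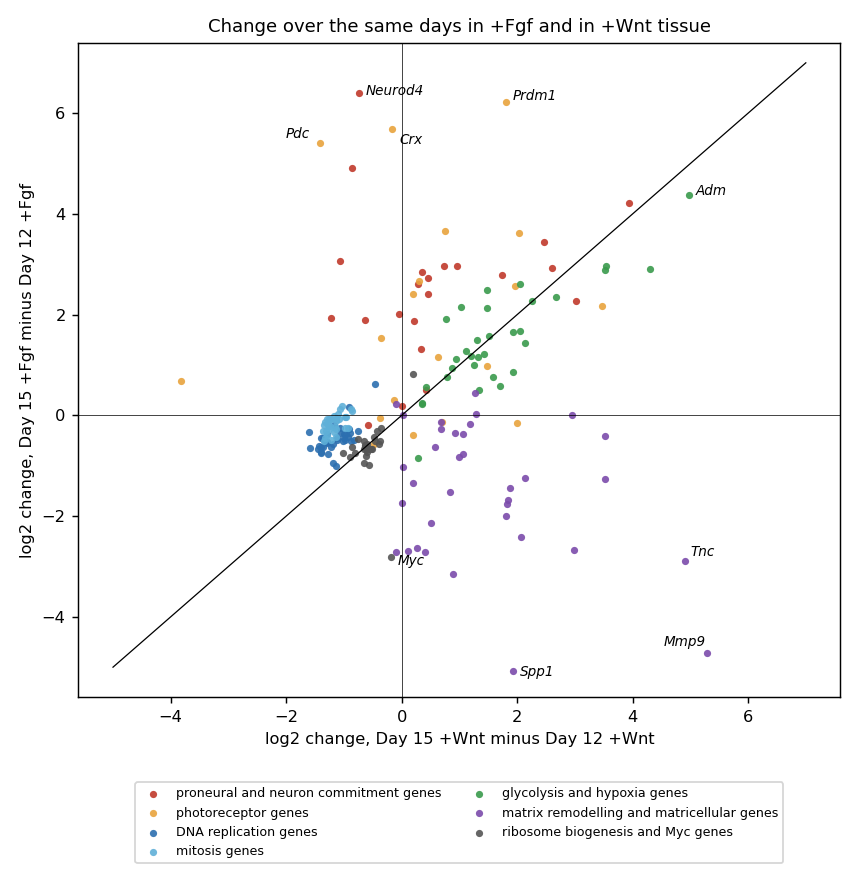
Log2 change from Day 12 to Day 15 in +Wnt culture (horizontal) and in +Fgf culture (vertical) for the tested members of 7 gene lists, 1 point per gene coloured by list. Glycolysis and ribosome genes lie near the diagonal, most proneural genes above it, most matrix remodelling genes below it, and replication and mitosis genes to the left of it, with lower changes in +Wnt than in +Fgf.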

How the data were processed

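Libraries were made from mRNA of 15 samples with a stranded kit. The authors aligned the reads to mm10 (GRCm38) with TopHat2 2.0.8b, leaving its defaults in place, counted fragments for UCSC genes by Cuffdiff (Cufflinks 2.1.1) and scaled these with edgeR 3.2.4. Whether the counting used strand is not given in the sources used here. The deposited values are a normalized signal in CPM per gene, scaled by the authors for library composition, and 100% of the non-zero values came out as whole reads (fragments) within 0.1 read, so that depth was recovered from them.

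Genes with at least 1 CPM in at least 3 libraries were tested with limma 3.58.1 in R 4.3.3 on log2(CPM + 0.3), with a mean for each of the 5 groups over all 15 libraries, a trend in the variance and Benjamini-Hochberg adjustment. edgeR's quasi-likelihood test (4.0.16) on the recovered reads called 7842 genes. Alternatives were RIN as a covariate, other pseudocounts, filters and scalings, fewer libraries and a block for replicate number. P-values measure the spread between the replicates of a group. The self-test used simulated data.

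The members, the 34 gene lists and the rules for naming genes were chosen with earlier results of these data known. Of 805 listed symbols 800 had an entry of their own and 706 were tested. Named genes were the 10 largest called increases and decreases with at least 10 CPM and separate replicates, the 5 largest differences from +Wnt in each direction, the study's markers and, in each list, its key members, its 3 largest called changes each way and members at or under 3 reads. Some genes are not reported here. Intervals and floors cover counting error only.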

Additional observations from a re-analysis of the deposited data

Results flagged for a closer look

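The change from Day 12 to Day 15 differed between +Fgf and +Wnt culture, by the limma interaction with an adjusted p under 0.05, for 6636 genes. The 5 genes furthest above 0, at a level of at least 10 CPM and with separate replicates, were all neuronal or photoreceptor genes or factors of committing progenitors. Neurod4 had a difference of 7.15, Pdc of 6.81, Crx of 5.85, Olig2 of 5.77 and Cdhr1 of 5.70 on the log2 scale. At the other end the matrix genes Mmp9, with a difference of -10.02, Tnc, with -7.80, and Spp1, with -7.00, stood beside the transcription factor Runx1, with -7.10, and the epithelial membrane protein Emp1, with -6.39. Runx1 fell by 4.16 in +Fgf culture and changed by 2.94 in +Wnt culture. Emp1 changed by 4.95 in +Wnt culture, and its change of -1.44 in +Fgf culture was -0.20 with RIN as a covariate (adjusted p = 0.85 in limma).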

How the results depend on the processing

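Of 167 called genes among those examined by name, 155 stayed called with the same sign under every alternative in which they were tested, other than RIN and replicate 3 of each day alone (14 of the 167 were not tested at a minimum of 10 CPM). With RIN 132 kept their call and sign, 34 lost their call at the same sign and Emx2 turned sign. Replicate 3 of each day alone turned the sign of Axin2 and Emx2, and further genes lost their call. That alternative, chosen after seeing the data because these 2 libraries were nearest in RIN, leaves 1 library for each day, which is assumed to vary like the other groups. The count of 7899 changed genes became 3591 with RIN and 4356 with replicate 3 of each day, and that of 6636 differences from +Wnt became 3842 and 4378. The count of 1700 called genes with an absolute log2 change of 1 or more became 1022 with a minimum of 10 CPM. Leaving out each library gave 6987 to 7374, 6007 to 6366 and 1663 to 1726, and the genes that lost their call in 1 or more of these were Apoe, Col4a1, Elavl2, Emx2, Etv1, Etv4, Gria3, Kdr, Mki67, Otx2, Spred1 and Tbx3. Deviations from the group means correlated at -0.020, 0.136 and -0.182 between equal replicate numbers of the 2 days, and at -0.265 to 0.287 between unequal ones. Deviations from a mean of 3 libraries are tied to each other, so these values cannot show whether the samples were paired. A replicate block gave 7837, 6555 and 1705. edgeR gave 7842, 6236 and 1917.

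Signs turned with RIN for Lhx2 (0.16), Emx2 (0.13) and Vax2 (0.29), with quantile normalization for Pax6 (0.01), with replicate 3 alone for Spry4 (-0.13), Spry1 (-0.00), Axin2 (0.29) and Emx2 (0.83), and when 1 library was left out for Spry1 (-0.08 to 0.19) and Spred2 (-0.01 to 0.09). The cause was not tested. Depth limits the lowest genes, for which 1 read was worth 0.0634 to 0.0737 CPM.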

Other observations

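Axon guidance genes were called higher in 18 of 39 members and lower in 10, with a median of 0.16 (14 and 7 with RIN). Dcc, the netrin receptor that steers ganglion cell axons out of the eye, rose by 2.12 from 38.7 to 42.0 CPM to 177 to 181 CPM. Robo2, a Slit receptor, rose by 1.84 and Dscam, an adhesion molecule that spaces retinal neurons, by 3.75. The secreted semaphorins Sema3d and Sema3e fell by 3.14 and 2.87, and the netrin receptor Unc5b by 2.08. Voltage-gated ion channel genes were higher in 21 of 38 tested members and lower in 4, with a median of 0.55 (17 and 2 with RIN). Kcnd3, a potassium channel of A-type currents, rose by 3.12 and Scn3b, a sodium channel subunit, by 3.50, whereas the potassium channel Kcnq5 fell by 1.46.

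Sterol synthesis and uptake genes were higher in 12 of 24 members and lower in 1, with a median of 0.14 (13 and 1 with RIN). Hmgcs1, an early enzyme of the pathway, rose by 0.37 and Lss, lanosterol synthase, by 0.44. p53 target and apoptosis genes were lower in 10 of 16 members and higher in 1, with a median of -0.29 (8 and 1 with RIN). Plk2, a kinase induced by stress and activity, fell by 1.95 and Pmaip1, a cell death gene, by 1.52, while Sesn1, a sestrin, rose by 0.64. Unfolded protein and integrated stress genes were higher in 5 of 16 members and lower in 3, with a median of 0.19 (2 and 1 with RIN). Hspa5, the main chaperone of the endoplasmic reticulum, fell by 0.49.

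Some genes differed more among the Day 15 replicates than between the days. Emx2, a factor of the forebrain and the early optic vesicle, was at 32.5, 29.9 and 10.9 CPM at Day 12 and at 0.811, 8.52 and 19.5 CPM at Day 15, so that the days overlapped. Ccnd2, a D-type cyclin, was at 246 to 285 CPM and then at 86.2, 159 and 211 CPM, with an adjusted p of 0.00155 in limma and, with RIN as a covariate, a change of -0.15 in place of -0.90 (adjusted p = 0.812). In Day 15 replicate 1, Emx2, Ccnd2, Lef1, Axin2, Wif1 and Bmp4 were each at their lowest of the 3, genes chosen for this remark after their values were seen.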
